A study of Rattus norvegicus with 6 samples.

Results

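ENSRNOG00000063070 is a gene on the plus strand of rat chromosome 18 that carried 51 intervals in a list of N6-methyladenosine (m6A) intervals from fetal penile tissue. Its members are all rows of the deposited list with that Ensembl gene ID, 51 of 29268 distinct intervals in the series, which were assigned to 13146 genes. The gene was chosen by its number of intervals, the highest of any gene in the list (the next gene had 24), so its count is a description and was not tested. The study profiled 3 samples titled case and 3 titled control, all penile tissue of male Sprague-Dawley rat fetuses. Per the design text, the mothers were gavaged each day from gestational day (GD) 12 to 19 with either di-(2-ethylhexyl) phthalate (DEHP), which is a plasticizer known to act against androgens, or corn oil alone, and the fetuses were removed on GD19.5. The affected tissue came from fetuses with hypospadias, in which the urethra opens on the underside of the penis, and the other from normal male fetuses. The titles say case and control only, and the labels do not say whether tissue from several fetuses was pooled.

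The list gives chromosome, start, end, gene ID and gene strand, and 0 columns of values per sample. Case and control could therefore not be compared for this gene, and nothing in the list ties an interval to a group or a sample. Read numbers are likewise unknown, and the tissue could not be checked against marker genes. The files pair the ID with no symbol, and 0 of 47357 entries in the RefSeq gene table carry an Ensembl ID, so the gene has no name or function here. Positions are those of the list, with starts, which the list counts from 0, raised by 1 so that both ends are counted from 1. The processing notes name Rnor_6.0, the list itself names no build, and the positions were not checked against a genome. No exon or intron structure was assigned to the intervals, and no sequence was read.

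As background, m6A is a methyl group on adenosine and the commonest modification inside messenger RNAs. A nuclear methyltransferase complex places it at short consensus motifs, demethylases can remove it, and reader proteins that bind it affect splicing, translation and decay of the transcript. In mammalian mRNAs it is found most often around stop codons, in 3' untranslated regions and in long internal exons. In the assay, methylated RNA immunoprecipitation sequencing (MeRIP-seq), RNA is broken into fragments, those bound by an antibody to m6A are sequenced beside an input, and stretches enriched over the input are listed as intervals. Such a list locates signal to a stretch of RNA, not to a single adenosine, and 1 broad enriched stretch can be listed as several neighbouring intervals.

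The intervals of ENSRNOG00000063070 were spread along 155 kb, from 29494054 to 29649078. None of the 51 was shared with another gene. By start position, 23 lay in the first 50 kb, 20 in the next 50 kb and 8 further on. The last 5 sat together at the 3' end, between 29647904 and 29649078. They were separated from the other 46 by a gap of 750 bp that followed the widest interval, of 52051 bp. That interval ran from 29595103 to 29647153 and took 33.6% of the whole stretch, and no other interval of the gene started inside it. Such a width was not particular to this gene, since 137 of the 29268 distinct intervals in the series exceeded 50000 bp.

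**Figure D1:**
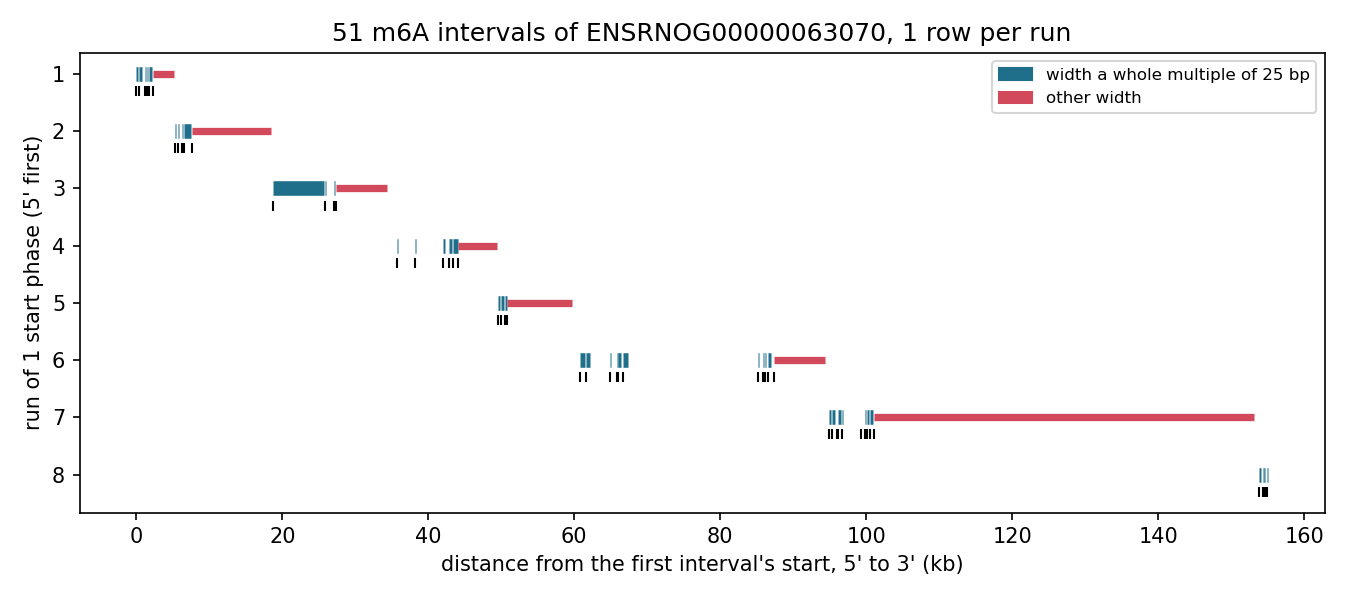
Map of the 51 intervals by distance in kb from the first start, from 5' to 3', with 1 row for each run of intervals whose starts share a position modulo 25. Bars are intervals, blue where the width is a whole multiple of 25 bp and red otherwise, and black ticks mark starts; 7 of the 8 rows end in a red interval, the longest of 52051 bp.

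Most intervals were short. The median width was 225 bp, with quartiles of 162.5 and 487.5 bp, against a median of 250 bp over all distinct intervals in the list. Widths fell into 2 kinds. In 44 intervals (86.3%) the width was a whole multiple of 25 bp, here called whole-step, against 80.8% in the whole list. These had a median of 200 bp and quartiles of 144 and 375 bp, and 38 of the 44 were at most 500 bp wide. The most frequent widths were 175 and 200 bp, with 5 intervals each. The narrowest, 50 bp, was listed 3 times, once as interval 17, counted from the 5' end, and again as intervals 48 and 50 in the 3' group. A single whole-step interval exceeded 1000 bp. It was interval 12, from 29512712 to 29519711, exactly 7000 bp wide, and the next widest of this kind was interval 10 with 950 bp. Whole-step widths above 5000 bp were listed for 57 of 23653 such intervals in the series.

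The other 7 intervals had widths off the 25 bp step, and all 7 were long. From 5' to 3' they measured 2878, 10830, 6991, 5285, 8959, 6981 and 52051 bp. They are start-to-end distances on the genome, which may include introns, and should not be read as lengths of methylated RNA. Intervals of both kinds together spanned 112700 bp, or 72.7% of the stretch, and the 7 off-step intervals made up 83.4% of that. The whole-step intervals covered 18725 bp, 12.1% of the stretch, and 11725 bp (7.56%) without the one of 7000 bp. The 8 intervals over 1000 bp thus made up most of the covered length, and the 43 shorter ones most of the count.

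Gaps between neighbouring intervals were mostly short. The median of the 50 gaps was 187.5 bp, with quartiles of 125 and 494 bp. Of them, 12 were at most 100 bp, 26 were over 100 and up to 500 bp, 4 were over 500 and up to 1000 bp, and 8 were longer. The shortest, 25 bp, occurred 3 times, and 125 bp was seen 6 times. The longest gap measured 17850 bp, between intervals 31 and 32, and the next were 3825 and 2775 bp. Ending a group at each gap over 1000 bp gave 9 groups along the gene, with 13, 2, 1, 1, 8, 2, 4, 10 and 10 intervals from 5' to 3'. The isolated intervals 16 and 17, of 125 and 50 bp, lay between gaps of 1300, 2400 and 3825 bp. The fullest group, at the 5' end, extended over 25933 bp, with gaps of 75 to 475 bp inside it.

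**Figure D2:**
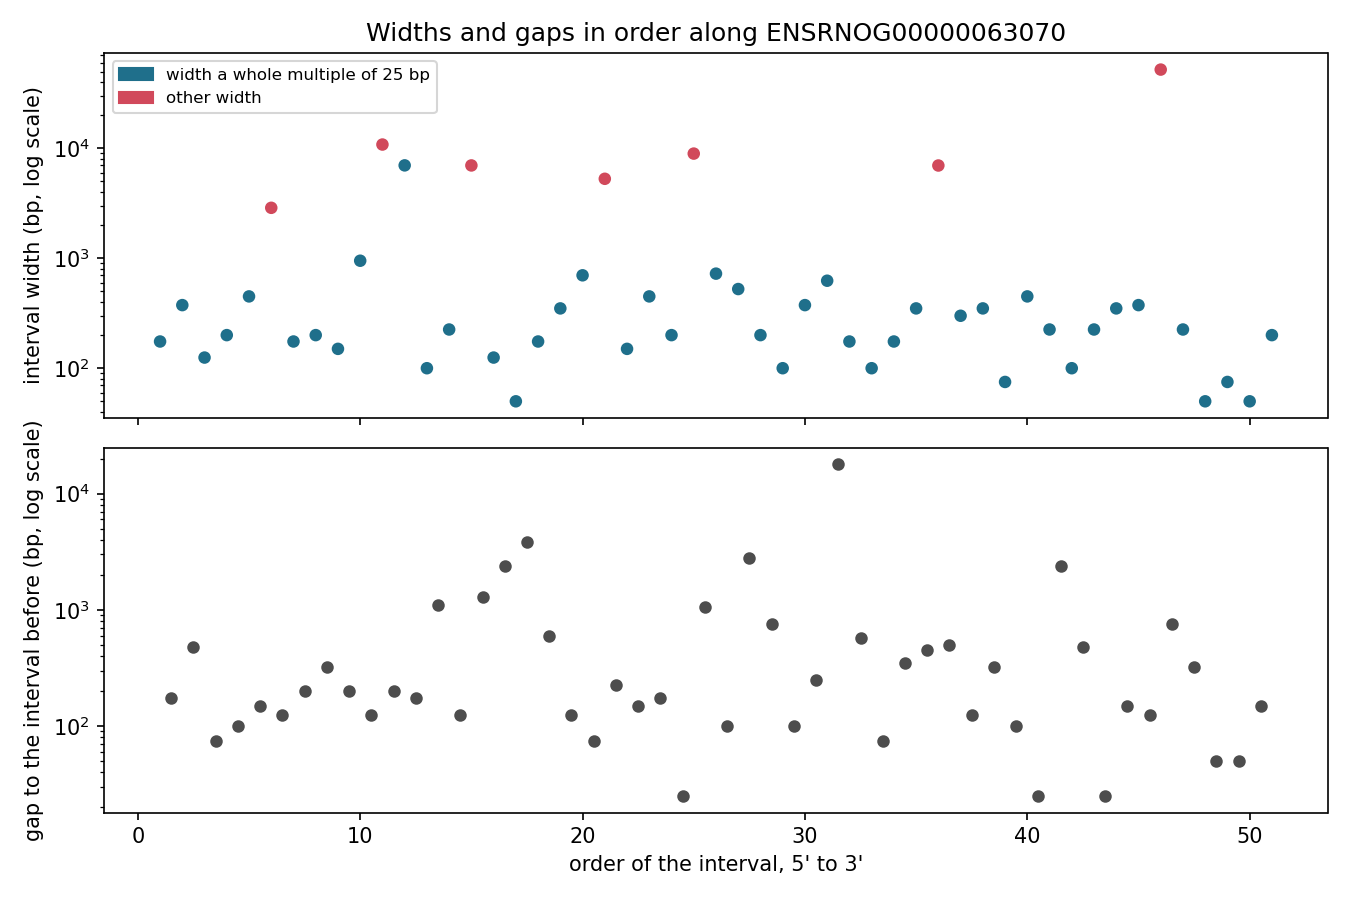
Width of each interval (upper panel) and gap to the interval before it (lower panel), both in bp on a log axis, in order from 5' to 3'. Off-step widths (red) run from 2878 to 52051 bp and all lie above every whole-step width (blue) other than that of interval 12. The width of interval 12, 7000 bp, is exceeded by 3 of the off-step widths. The highest gap is 17850 bp, before interval 32.

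All 50 gaps were whole multiples of 25 bp. The phase of a position, its remainder after division by 25 with starts counted from 0 as in the file, therefore never changed across a gap. It changed only inside the 7 off-step intervals. Each start lay on the phase of the preceding end in 50 of 50 pairs. Neighbouring starts shared a phase in 43 of 50 pairs (86.0%), and the 7 changes split the gene into 8 runs. From 5' to 3' the runs held 6, 5, 4, 6, 4, 11, 10 and 5 intervals, on phases 3, 6, 11, 2, 12, 21, 2 and 3. The starts thus used 6 of the 25 possible phases. Phase 2 held 16 starts in 2 separate runs, and phase 3 held 11, in the first run and the last. An off-step interval ends its run by the way a run is defined, so its place there is not a finding.

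**Figure D3:**
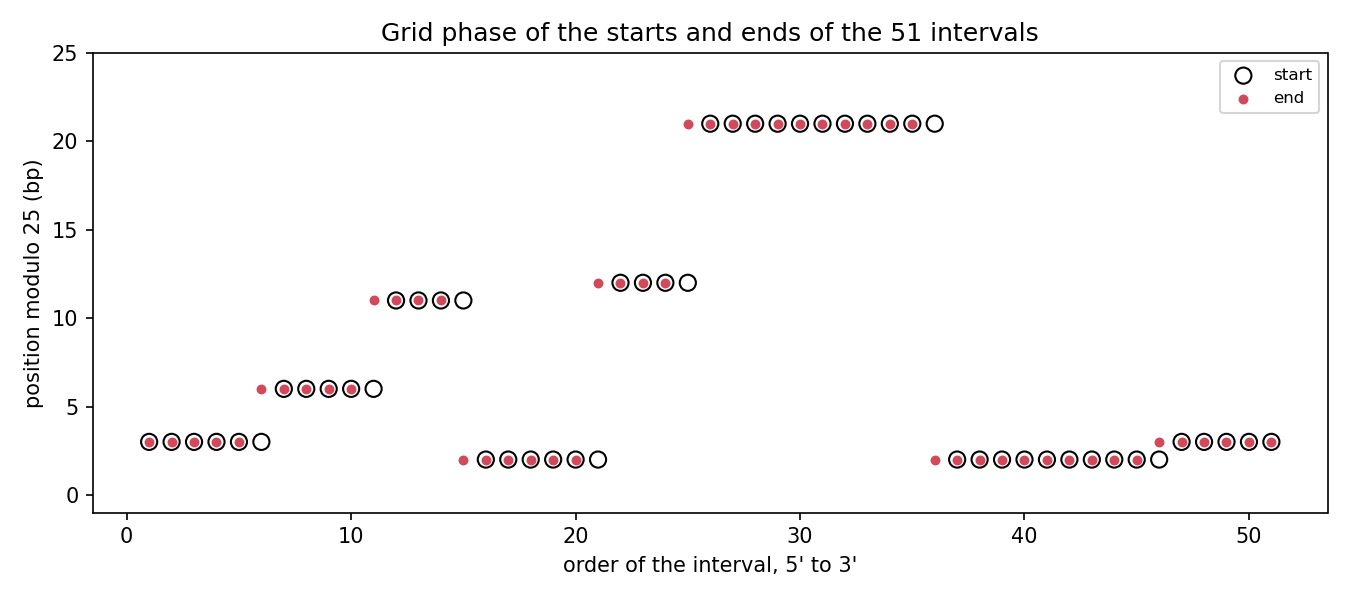
Position modulo 25, in bp, of the start (open circle) and the end (red dot) of each interval, in order from 5' to 3'. Circle and dot coincide in the 44 whole-step intervals and part in the other 7, and each following circle lies on the level of the dot before it.

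The off-step intervals moved the phase by 3, 5, 16, 10, 9, 6 and 1 bp in turn. These amounts add to 50 bp, a whole multiple of 25, so that the last interval ended on the phase on which the first began. The gap on the 5' side of an off-step interval was shorter than that on its 3' side in 6 of the 7. The gaps on the 5' side were 150, 125, 125, 75, 25, 450 and 125 bp, and those on the 3' side 125, 200, 1300, 225, 1050, 500 and 750 bp. The exception was the first, of 2878 bp. In other genes the 3' gap was the longer one for 867 of 1531 off-step intervals with a neighbour on both sides (56.6%), and for 63 of 97 (64.9%) in other genes with 11 or more intervals. With 7 intervals of 1 gene, the difference from these shares was not tested.

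The runs differed in how their intervals were packed. In the second run, 4 whole-step intervals of 150 to 950 bp preceded the off-step one, and starts covered 2325 bp with gaps of 125 to 325 bp. The fifth run was the tighter of these, with starts over 1150 bp and gaps of 25 to 175 bp. The fourth began with the isolated intervals 16 and 17, and its starts were spread over 8425 bp. The sixth had the widest spread of starts, over 26625 bp. It held the gap of 17850 bp, on both sides of which the starts lay on phase 21. The seventh had 9 whole-step intervals with a median width of 300 bp, from 75 to 450 bp. The last run had 5 narrow intervals of 225, 50, 75, 50 and 200 bp within 1175 bp, and its median of 75 bp was the lowest of the 8 runs, against medians of 175 to 300 bp for the whole-step widths of the other 7.

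The share of gaps on the grid was set beside that of other genes by gap length. Among gaps over 1000 and up to 5000 bp, 7 of 7 in ENSRNOG00000063070 were whole multiples of 25 bp, against 60 of 147 (40.8%) in the 102 other genes with 11 or more intervals and 719 of 2503 (28.7%) in all other genes. For gaps over 5000 bp the gene had 1, which was whole, against 6 of 210 (2.86%) and 204 of 4859 (4.20%). At gaps up to 200 bp the shares were 28 of 28, 528 of 537 (98.3%) and 6575 of 6829 (96.3%), and at gaps over 200 and up to 1000 bp they were 14 of 14, 362 of 384 (94.3%) and 3947 of 4612 (85.6%). The gaps of 1 gene are not independent, and this pattern was noticed in the list before it was counted, so these shares carry no test. Counts of gaps in other genes are over assignments, so a gap between intervals assigned to several genes counts once for each. With each such gap counted once, the shares over 1000 and up to 5000 bp were 53 of 137 (38.7%) in the other genes with 11 or more intervals and 668 of 2312 (28.9%) in all other genes.

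After an off-step interval, the next interval on the 3' side lay on the same grid in 7 of 7 cases in ENSRNOG00000063070. That follows from all gaps of the gene being whole multiples of 25 bp and is not a separate finding. In other genes the share of such cases on the same grid went with the gap between the 2 intervals. At gaps up to 200 bp it was 2 of 2 in the gene, against 19 of 21 (90.5%) in the other genes with 11 or more intervals and 672 of 780 (86.2%) in all other genes. At gaps over 200 and up to 1000 bp it was 3 of 3 in the gene, against 12 of 18 (66.7%) and 339 of 597 (56.8%). At gaps over 1000 and up to 5000 bp it was 2 of 2, against 2 of 22 (9.09%) and 82 of 710 (11.5%). Beyond 5000 bp the gene had no case. Thus 5 of its 7 cases fell at gap lengths where most such intervals of other genes kept the grid too.

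**Figure D4:**
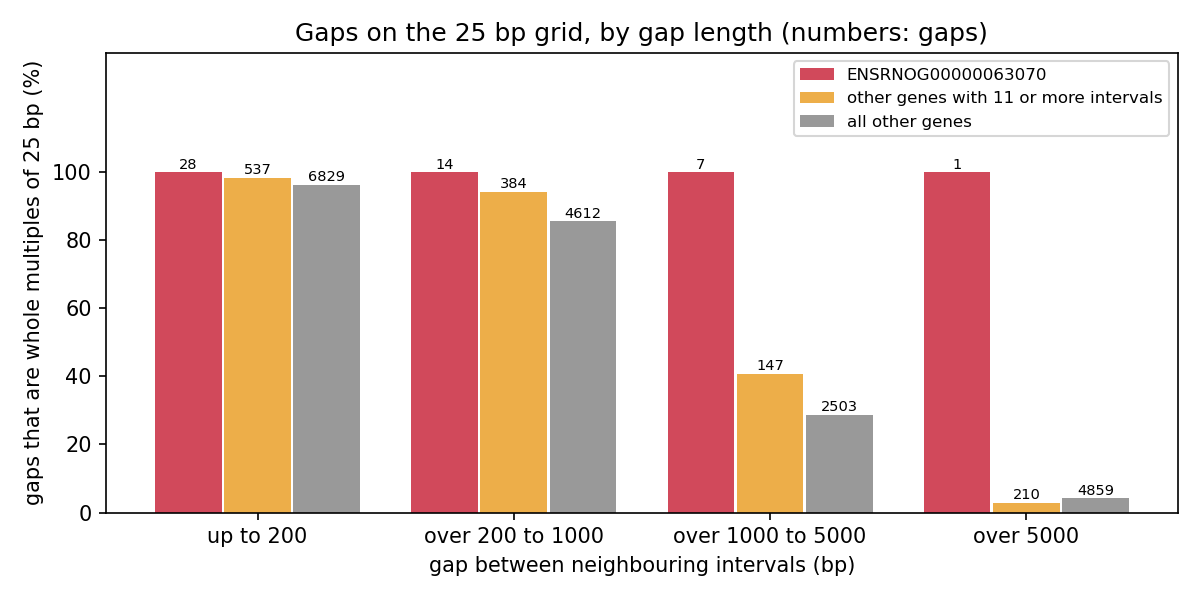
Share of gaps between neighbouring intervals of a gene that are whole multiples of 25 bp, in percent, by gap length, with the number of gaps above each bar. The bars of ENSRNOG00000063070 stand at 100% in all 4 classes, on 28, 14, 7 and 1 gaps, while those of the other genes with 11 or more intervals and of all other genes decline to 2.86% and 4.20% at gaps over 5000 bp.

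Other genes also had all of their gaps on the grid. This was so for 1140 of the 4499 other genes with 3 or more intervals (25.3%), and for 232 of the 3408 in which a gap exceeded 1000 bp (6.81%). Of the 102 other genes with 11 or more intervals, 11 had only whole-multiple gaps, 4 of them with an off-step width as well and 3 with a gap over 1000 bp. The longest gap in these 11 was 2300 bp, but among the 232 genes the longest was 346125 bp, above the 17850 bp of ENSRNOG00000063070. None of the 1140 genes held more than 24 intervals, and the fewer gaps a gene has, the more easily all of them lie on the grid. The 102 genes, some of which share all their intervals so that they have 97 distinct sets, held 11 to 24 intervals over spans from 4.75 to 558 kb, and 21 of them spanned more than ENSRNOG00000063070. The gene's median width of 225 bp and median gap of 187.5 bp compare with medians of 244 and 300 bp over the 102 genes' own medians.

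In the 102 genes, likeness to ENSRNOG00000063070 was measured by the distance over 4 values, each divided by its SD: the logarithms of median width and of median gap, the share of whole-step widths and the share of neighbouring starts in 1 phase. The 2 nearest were ENSRNOG00000016246, also on chromosome 18 but on the minus strand and far from the gene, and ENSRNOG00000021670, on the minus strand of chromosome 2. Their distances were 0.57 and 0.61. Both held 11 intervals with a median width of 225 bp, a median gap of 162.5 bp and 1 off-step width. They differed from the gene in their long distances. ENSRNOG00000016246 spanned 75.4 kb, of which 1 interval of 70936 bp took most, and its gaps reached 400 bp. All 10 of these gaps were whole multiples of 25 bp, as were all gaps in ENSRNOG00000063070. ENSRNOG00000021670 spanned 138 kb, and its longest gap, of 127236 bp, was the 1 of its 10 gaps that was not a whole multiple of 25 bp. The gene IDs carry no names in the files, and the likeness is one of spacing only.

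ENSRNOG00000063070 followed a row of plus-strand genes with fewer intervals each. Among intervals on chromosome 18 with a start in the file from 29000000 up to but not including 30000000, the gene held 51 of 136 (37.5%), and the other 85 were assigned to 23 genes. Of these, 17 lay on the plus strand, all of them on the 5' side of the gene, between 29007096 and 29225173. They held 2 to 9 intervals each, with a median of 4. Then followed 230 kb with no interval start. The remaining 6 genes, on the minus strand, held 1 to 4 intervals each, 3 of them on the 5' side and 3 on the 3' side of the gene. The closest interval on the 5' side belonged to a minus-strand gene and ended 1447 bp before the first of the 51. On the 3' side the next interval began 22130 bp after the last, also in a minus-strand gene.

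**Figure D5:**
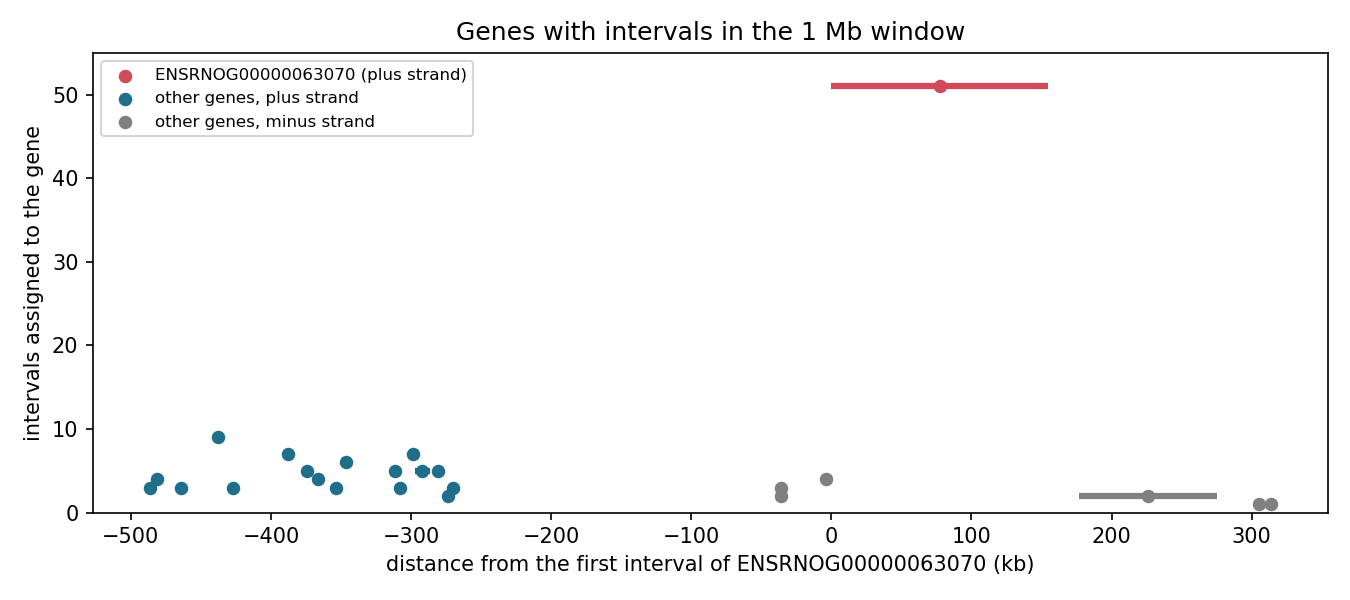
Number of intervals of each gene in the 1 Mb window against its place, as distance in kb from the first interval of ENSRNOG00000063070. Horizontal bars give the stretch from a gene's first to its last interval and points its middle; the gene stands at 51 intervals over 155 kb, and the other 23 genes lie at 1 to 9.

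The plus-strand neighbours were compact. Intervals spanned 155025 bp in ENSRNOG00000063070, against 1075 to 10659 bp per gene in the 17 neighbours, with a median of 2225 bp. Per 10 kb of the stretch that a gene's own intervals spanned, the gene held 3.29 intervals and these neighbours 4.69 to 31.4. The gene, chosen for its number of intervals, thus had the most in the window, at a lower density than any of these 17 neighbours. That density depends on the interval of 52051 bp, which counts once and took 33.6% of the stretch. The density without that interval is not given here, and the place below all 17 neighbours holds only with it and its length counted. Median width was 225 bp in the gene and 250 bp over the 74 distinct intervals of the 17 neighbours, the widest of which reached 1847 bp. Whole-step widths made up 86.3% in the gene, against 71 of 74 (95.9%) in the neighbours. The smallest off-step width in the gene, 2878 bp, was above all 3 among the neighbours, which were 666, 115 and 1847 bp.

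Nearly all gaps lay on the grid in the neighbours too. Gaps were whole multiples of 25 bp in 50 of 50 pairs in ENSRNOG00000063070 and in 59 of 60 in the 17 neighbours, whose exception was also their longest gap, of 7934 bp. With gaps that 2 neighbours share counted once, this was 57 of 58. The starts of the gene used 6 phases, while in 15 of the 17 neighbours all starts lay on 1 phase. Across genes the phase differed, with 14 phases among the 17. The median gap was 187.5 bp in the gene, against 137.5 bp over the 60 pairs. Among gaps over 1000 and up to 5000 bp, 7 of 7 in the gene and 4 of 4 in all 23 other genes of the window were whole multiples, the 4 being 3 distinct gaps, since 2 minus-strand genes share intervals and the gap between them. Beyond 5000 bp it was 1 of 1 in the gene and 0 of 2 in the others.

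ENSRNOG00000046264 had the most intervals among the neighbours, 9 between 29054745 and 29057610. Its first, of 666 bp, was off the step and moved the phase from 19 to 10, on which the other 8 starts lay. Its gaps were 25, 25, 25, 0, 25, 0, 25 and 75 bp, so these intervals touched or nearly touched over 2866 bp. In ENSRNOG00000063070 no intervals touched, and 3 of 50 gaps were as short as 25 bp. Joining intervals at most 100 bp apart left 39 of the 51 in ENSRNOG00000063070, against a single one of the 9 in ENSRNOG00000046264.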

How the data were processed

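MeRIP-seq libraries came from 3 case and 3 control samples. The tool HISAT2 and the build Rnor_6.0 are named, per the submitters' processing notes. Neither labels nor headers name the peak caller, its threshold, the annotation or any pooling. The authors' deposited table has 5 columns, per the file headers, with positions in bp, a gene ID and a strand, but no value for a sample, no height and no p-value. Depth is therefore unknown, and intervals or limits based on read counts could not be given.

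Rows of ENSRNOG00000063070 were ordered by start. Width was end minus start as in the file (starts counted from 0), a gap was the next start minus the end, and phase was the position modulo 25, a step read from the widths. The quasi-likelihood test of case against control fixed in the design needs counts per sample and was not run, and no other test was made. The gene, the measures and the named genes (the gene, the window gene with most intervals and the 2 most alike) were chosen with earlier results of these data known. Computations used Python 3.11.15, numpy 2.4.6, pandas 2.3.3, scipy 1.17.1 and matplotlib 3.10.9, and were checked on made-up interval lists with known runs, widths and gaps.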

Additional observations from a re-analysis of the deposited data

How the results depend on the processing

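No paired analysis was possible because samples have no values of their own in the table, and no replicate could be left out. Of 34 recomputed values for 8 measures of the gene, 32 stayed within a range around the main value, its edges included. The range was 1.5 times the count, or the 95% interval of the share (exact binomial) or median (order statistics). These ranges cover counting error over intervals only and take the intervals of 1 gene as independent. The median gap rose from 187.5 to 325 bp, the upper edge, where intervals at most 100 bp apart were joined or only whole-step widths kept. The median width was 200 bp, the lower edge, with whole-step widths only, against 225 bp. The alternatives joined intervals at most 25 or 100 bp apart, left out 50 bp intervals, kept whole-step widths only, or changed the window or the run rule; the 4 on gap multiples were chosen after seeing the data. The number of runs was 15, against 8, where start and end phase both had to match, since each off-step interval then stands alone. Under the joining, 50 bp and whole-step settings the number of runs stayed 8. None of these settings could remove a run here, so they were no check on that number. The share of whole-multiple gaps was 83.7% with whole-step intervals alone, against 100%, since each of the 7 removed intervals leaves a gap off the step. Joining intervals or leaving out those of 50 bp could not take a gap off the step, so the 100% under those settings was fixed in advance. Joining over 100 bp gave 39 intervals.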
